A study of Homo sapiens with 8 samples.

Results

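The comparison set P2 hESCs (H9 human embryonic stem cells at passage 100s) against P1 hESCs (the same line at passage 40s). It used 4 of the 8 samples sequenced, P1-1 and P1-2 against P2-1 and P2-2, chosen by their labels alone, and all 60675 genes in the files. Both groups were the H9 line (WA09), derived from a human blastocyst, and were grown without feeder cells in mTeSR1 medium on Matrigel and passaged with dispase. The labels name no drug, transgene or other treatment. The other 4 samples were P3 (passage 200s) and P4 (passage 300s) hESCs, which the study describes as carrying a gain of 20q11.21. They entered the fit to estimate the spread between samples. They also entered the normalization and the filter on low counts, and so helped to decide which genes were tested. The study concerns how culture-adapted hESCs gain a survival advantage, and it places P2 hESCs before that gain. Passage number and the history of the cultures cannot be told apart. The labels do not say that the 2 samples of a group came from separate cultures, so p-values measure the spread between these samples, which may be technical.

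Human embryonic stem cells are held in a pluripotent state by a network of transcription factors around POU5F1, SOX2 and NANOG, and by FGF and activin or NODAL signalling from the medium and the cells themselves. During long culture, cells that grow or survive better than their neighbours can take over, and gains of a small region of the long arm of chromosome 20, which holds the survival gene BCL2L1 and the spindle gene TPX2, are among the best known changes. A low level of RNA from lineage genes in such cultures can come from a few differentiating cells or from all cells. In bulk RNA, fewer cells of a type and less RNA per cell cannot be told apart.

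The total expected count was 33772161 in P1-1, 34550011 in P1-2, 38031232 in P2-1 and 32843918 in P2-2. Levels are given as CPM, a gene's count scaled to the TMM-normalized total of its library, or as TPM, which is also corrected for gene length, where genes are set beside each other. A floor of 3 counts corresponded to at most 0.0945 CPM in P1 hESCs and 0.0841 CPM in P2 hESCs, and this floor covers counting error only. The share of counts from mitochondrial genes was 9.84% in P1-1 and 18.53% in P1-2 against 6.55% and 6.72% in the P2 samples. It differed as much within P3 hESCs (18.38% and 7.53%) and within P4 hESCs (17.24% and 5.89%).

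Genes that define the pluripotent state were abundant in every sample. POU5F1, the central pluripotency factor, was at 1458 and 1205 CPM in P1 hESCs and at 1620 and 1650 CPM in P2 hESCs, a log2 difference of 0.30 ± 0.21 (SE) with a 95% interval from -0.17 to 0.76. SOX2 was at 353 and 378 CPM in P1 hESCs and at 309 and 292 CPM in P2 hESCs. NANOG was at 77.4 and 52.3 CPM in P1 hESCs and at 82.6 and 70.0 CPM in P2 hESCs. The intervals of SOX2 (-0.85 to 0.28) and NANOG (-0.29 to 0.76) included 0. Of the 22 genes listed as core pluripotency genes, 2 were higher and 3 lower in P2 hESCs at an unadjusted p under 0.05. These are 9.09% and 13.6% of the list, beside 3.08% and 6.06% of all tested genes. ZFP42 (REX1), a marker of the undifferentiated state, was at 108 and 70.7 CPM in P1 hESCs and at 192 and 186 CPM in P2 hESCs, while TERF1, a telomere protein that is abundant in these cells, was at 672 and 1105 CPM against 470 and 398 CPM. DPPA2 was higher (0.97 ± 0.33 on the log2 scale) and GDF3, a ligand of the NODAL family, was lower (-1.15 ± 0.34). Without P1-2 1 member was higher and 1 lower, and without P2-1 1 and 3.

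No gene met the thresholds of a differentially expressed gene (DEG), an absolute log2 fold change above 1 with a false discovery rate (FDR) under 0.01, in edgeR's quasi-likelihood test across all 8 samples (0 of 19499 genes tested, 0%). The smallest FDR was 0.01725, for APLNR, which was the only gene under an FDR of 0.05 (0.00513% of genes). At an unadjusted p under 0.05, 1782 genes (9.14%) were recorded, 601 higher (3.08%) and 1181 lower (6.06%) in P2 hESCs, and 813 of them had an absolute log2 fold change above 1. DESeq2, applied to the same counts, called 40 DEGs (0.205%), 13 higher and 27 lower. Limma on log2(TPM + 1) called 1 DEG, HAND1, and on log2(TPM + 0.1) called 0. A filter on low counts set which genes were tested. Of all tested genes, 522 passed it only through their P2 samples and 434 only through their P1 samples. The direction of such genes was largely set by the filter, and HAND1 was among the 522. For scale, the same edgeR thresholds called 667 genes (3.42%) between P2 and P3 hESCs.

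The split between higher and lower genes depended on the scale. Among the genes at an unadjusted p under 0.05, 66.3% were lower in P2 hESCs in edgeR and 33.9% on log2(TPM + 1), where the median of all genes itself was shifted by 0.13. With each sample centred on its median over the tested nuclear genes, a setting chosen after the data were seen, 553 genes were higher and 1243 lower, and the median of all genes was -0.06. Differences below are therefore read against the median of all genes, which was -0.01 in edgeR.

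The size of a typical difference was below what 2 against 2 samples could resolve. The median absolute log2 fold change over the tested genes was 0.254, the median SE was 0.284 and the 95% interval reached a median of 0.617 to either side. An exact permutation test of a single gene with 2 against 2 samples cannot give a p-value below 0.333. Both P2 samples lay above both P1 samples in 4725 genes (24.2%) and below both in 4707 genes (24.1%).

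The 2 P1 samples did not lie side by side. The median absolute log2 difference per gene was 0.211 between P1-1 and P1-2 and 0.142 between P2-1 and P2-2. Between the groups it was 0.144 from P1-1 to P2-1 and 0.194 from P1-1 to P2-2, but 0.256 and 0.275 from P1-2 to the same samples. P1-1 was thus nearer to both P2 samples than to its own replicate. Of the 1181 genes lower in P2 hESCs, 87.6% had P1-1 nearer to the P2 mean than P1-2, against 67.2% of all tested genes, and of the 601 higher genes 74.0% did. Without P1-2, 207 genes were higher and 311 lower at an unadjusted p under 0.05, and without P1-1, 920 and 1605. Without P2-1 these counts were 349 and 840, and without P2-2 they were 206 and 422. In these fits the single sample left in a line was assumed to vary like the other lines.

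**Figure D1:**
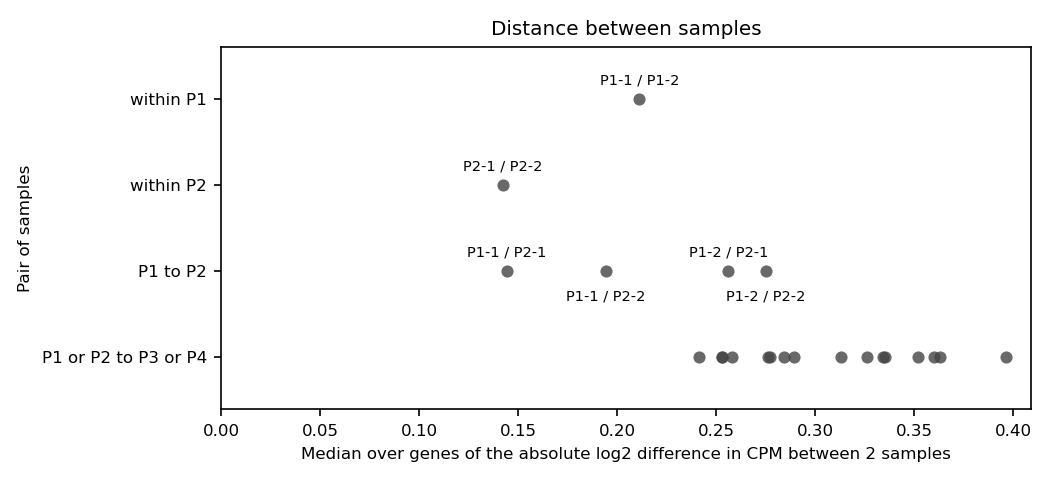
Each point is 1 pair of samples, and the x axis gives the median over tested genes of the absolute log2 difference in CPM. The pair P1-1 and P2-1 (0.144) lies as near as the 2 P2 samples (0.142), while the pair P1-1 and P1-2 (0.211) lies farther apart.

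APLNR (apelin receptor, a G-protein-coupled receptor of early mesoderm; chr11:57233577-57237314, minus strand) had the smallest p-value of all tested genes. It was at 0.229 and 0.410 CPM in P1 hESCs and at 5.65 and 5.24 CPM in P2 hESCs, from 8 and 13 counts against 232 and 187. The log2 fold change was 4.09 ± 0.45 (SE), which is 17-fold, and DESeq2 gave an FDR of 1.1e-11. APLNR was at 5.06 and 3.82 CPM in P3 hESCs and at 0.240 and 0.538 CPM in P4 hESCs, so the P3 samples lay near P2 and the P4 samples near P1. HAND1 (a transcription factor of mesoderm and extraembryonic tissue; chr5:154474972-154478264, minus strand) was at 0 and 0.126 CPM in P1 hESCs, from 0 and 4 counts, and at 1.85 and 2.27 CPM in P2 hESCs, from 76 and 81 counts. Its log2 fold change was 5.0 ± 0.80 with an FDR of 0.0847 in edgeR. HAND1 was at 0 in both P3 samples and at 0.137 and 0.168 CPM in P4 hESCs. It passed the filter on low counts only through its P2 samples, so it had to be higher there.

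The other genes among the 12 leading higher ones had more moderate differences, and none of the 12 overlapped between the groups, as the rule for naming them required. SESN2 (sestrin 2, a stress-induced inhibitor of the growth kinase mTORC1) was at 25.4 and 21.3 CPM against 51.7 and 56.6 CPM. CEBPB (a bZIP transcription factor) was at 5.014 and 4.001 CPM against 9.96 and 10.8 CPM. For both genes the groups were separated by more than the spread within either, but the FDR was 0.196 for SESN2 and 0.253 for CEBPB. TCL1B, of a family of AKT coactivators, was 2.85-fold higher, PADI3 (a peptidylarginine deiminase) 4.40-fold, TRANK1 2.52-fold and LGALS1 (galectin 1) 2.04-fold. LGALS1 was higher still in later lines, at 58.0 and 51.7 CPM in P3 hESCs. TRIM61 was 5.38-fold higher. SULT1A4, a sulfotransferase gene with a near-identical copy (SULT1A3), and RPL21P75, a pseudogene of the ribosomal protein gene RPL21, were 3.31-fold and 5.06-fold higher, and the assignment of reads between such copies is uncertain.

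Among the 12 leading lower genes, TFRC had the highest CPM. TFRC (transferrin receptor 1, which brings iron into the cell; chr3:196027183-196082189, minus strand) was at 336 and 522 CPM in P1 hESCs and at 163 and 134 CPM in P2 hESCs. The mean was 2.89-fold lower in P2 hESCs (log2 fold change -1.53 ± 0.24, FDR 0.0847), and the P3 and P4 samples lay between, from 219 to 320 CPM. EGLN1 (the oxygen-sensing prolyl hydroxylase PHD2, which marks HIF for degradation; chr1:231363751-231425044, minus strand) was at 40.4 and 34.3 CPM against 16.7 and 13.2 CPM. It stayed at 14.6 to 18.3 CPM in P3 and P4 hESCs. STC1 (stanniocalcin 1, a secreted hormone induced by low oxygen) was at 97.2 and 140 CPM against 53.73 and 49.98 CPM, and was lower again in P3 hESCs (28.5 and 28.8 CPM). RORA (a nuclear receptor) was 2.65-fold and HTR2C (a serotonin receptor gene on X) 2.75-fold lower.

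CAT (catalase, which breaks down hydrogen peroxide; chr11:34438925-34472062, plus strand) was near the floor in P2 hESCs. It had 43 and 46 counts in P1 hESCs (1.23 and 1.45 CPM) and 1 and 2 counts in P2 hESCs. The ratio of P1 to P2 was 34.2 with an exact 95% counting interval from 11.3 to 169. CAT had 0 CPM in both P3 samples and in P4-2, and 0.0343 CPM in P4-1. It thus passed the filter on low counts only through its P1 samples and had to be lower in P2 hESCs. C5orf63, with 5 and 3 counts in P2 hESCs, was also near it, with 1.18 and 1.45 CPM in P1, 0.122 and 0.0841 CPM in P2 and 0 CPM in both P3 samples. LRRC61 and ZBED10P were 7.64-fold and 5.66-fold lower. ZBED10P lies within the span of LRRC61 on the same strand of chromosome 7, without a shared exon in the annotation used for positions. Whether the 2 differences are independent was not tested. LINC00664, a long noncoding RNA on chromosome 19, was 3.57-fold lower, SLITRK4 (a neuronal membrane protein gene on X) 4.04-fold, and SDAD1P1, a processed pseudogene, 5.11-fold. LINC00664 and SLITRK4 were higher in P4 hESCs than in P1 hESCs, at 20.5 and 17.2 CPM and at 7.52 and 8.54 CPM.

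**Figure D2:**
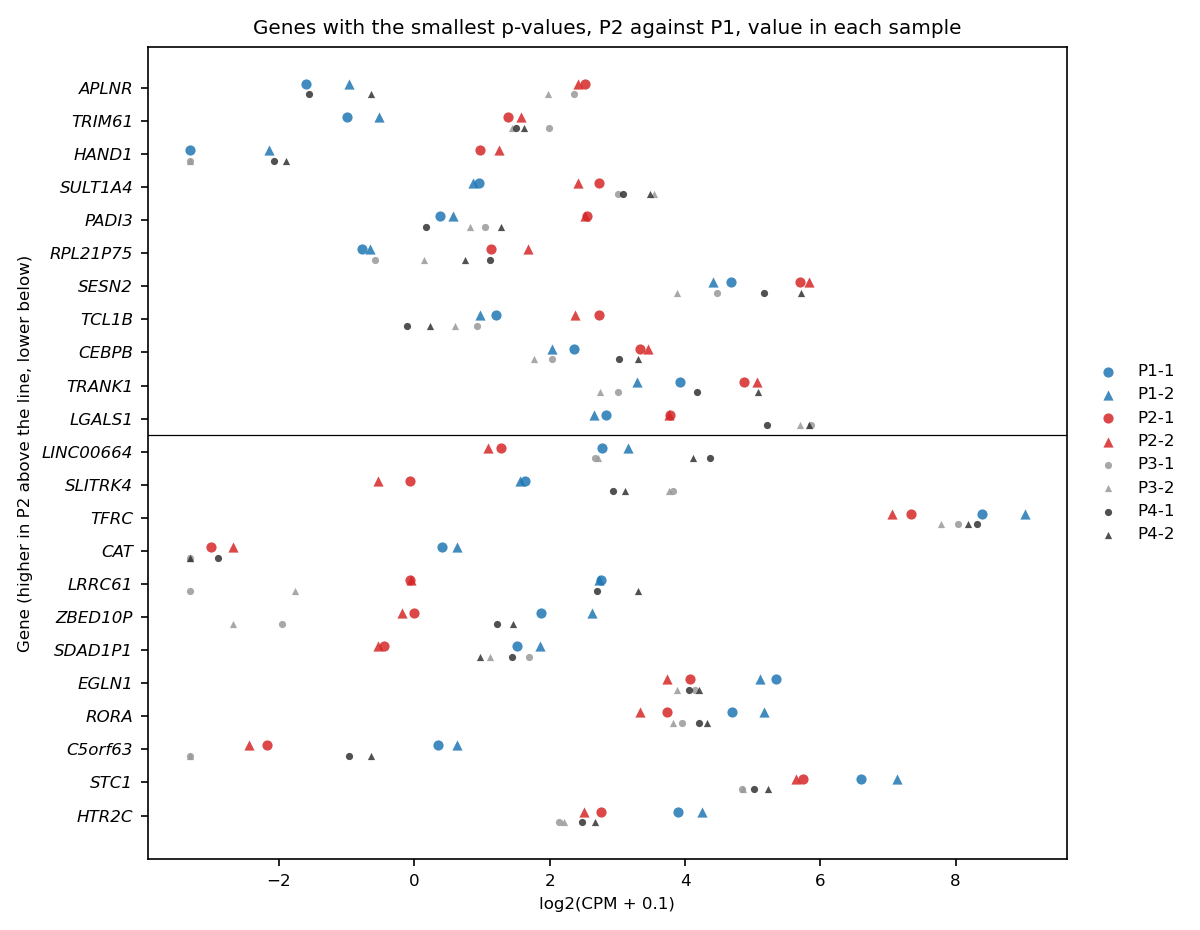
Each symbol is 1 sample, and the x axis gives log2(CPM + 0.1). The 11 genes above the line are higher and the 12 below are lower in P2 hESCs, and in each of them the red symbols (P2) and the blue symbols (P1) do not overlap, which the naming rule required. Grey and black symbols give P3 and P4. HAND1 passed the filter on low counts only through P2 hESCs and CAT only through P1 hESCs, which set their direction.

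In P3 hESCs the mean of 4 of the 12 higher and 9 of the 12 lower genes was nearer to P2 than to P1. In P4 hESCs this held for 7 of the 12 higher and 4 of the 12 lower genes, and in both lines for 3 and 4. TRIM61, SULT1A4 and LGALS1 were the higher genes nearer to P2 in both lines, and CAT, EGLN1, STC1 and HTR2C the lower ones. For CAT this followed from the filter on low counts, which it passed only through its P1 samples. The other 17 genes were nearer to P1 in at least 1 of the later lines.

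Of the 24 genes, 19 were among the 40 DEGs of DESeq2. The others called by DESeq2 included PCDHB5, a clustered protocadherin described below. PRODH (proline dehydrogenase) and SLC19A1 (the reduced folate carrier) were also called by DESeq2, but their P1 values were far apart. PRODH was at 62.4 CPM in P1-1 and 207 CPM in P1-2, against 35.4 and 34.9 CPM in P2 hESCs. SLC19A1 was at 36.2 and 101 CPM against 21.8 and 23.4 CPM. PRODH and SLC19A1 were named after their values were seen.

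A few genes without a symbol were present in both samples of 1 group and at 0 in both of the other. ENSG00000258677, which overlaps STAU2 and UBE2W on the same strand, was at 0 in P1 hESCs and at 1.68 and 2.21 CPM in P2 hESCs, at least 20.6-fold higher against a floor of 3 counts per library. ENSG00000279364, which lies opposite ZNF770, was at 12.2 and 23.3 CPM in P1 hESCs and at 0 in P2 hESCs, at least 211-fold lower. Such values do not always follow the line, since ENSG00000279364 was at 22.4 CPM in P4-1 and at 0 in P4-2, and ENSG00000282960 (at least 33.3-fold higher in P2) was at 0 in P4-1 and at 4.71 CPM in P4-2. Reads of overlapping genes can be assigned to 1 or the other, so these values are uncertain. ENSG00000258377 (opposite MGAT2) and ENSG00000280064 (opposite RAB11FIP1) were at least 83.3-fold and 61.7-fold lower.

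The tested genes were also described by 39 lists of pathways, cell types and gene families. Against a background of 3.08% of all genes higher and 6.06% lower at an unadjusted p under 0.05, the lists with the highest shares of lower members were the mitochondrially encoded genes (61.5%), glycolysis and hypoxia genes (28.1%) and clustered protocadherins (25.9%). The shares of higher members were 33.3% of 9 neural crest markers and 31.2% of 16 mesendoderm markers. These higher shares are partly set by the filter on low counts, since a gene that reached it only through its P2 samples had to be higher there. That was so for 3 of the 5 higher mesendoderm markers, 1 of the 3 higher crest markers and both higher HOX genes. These lists are therefore not ranked by their higher shares. No member of any list was a DEG in edgeR.

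**Figure D3:**
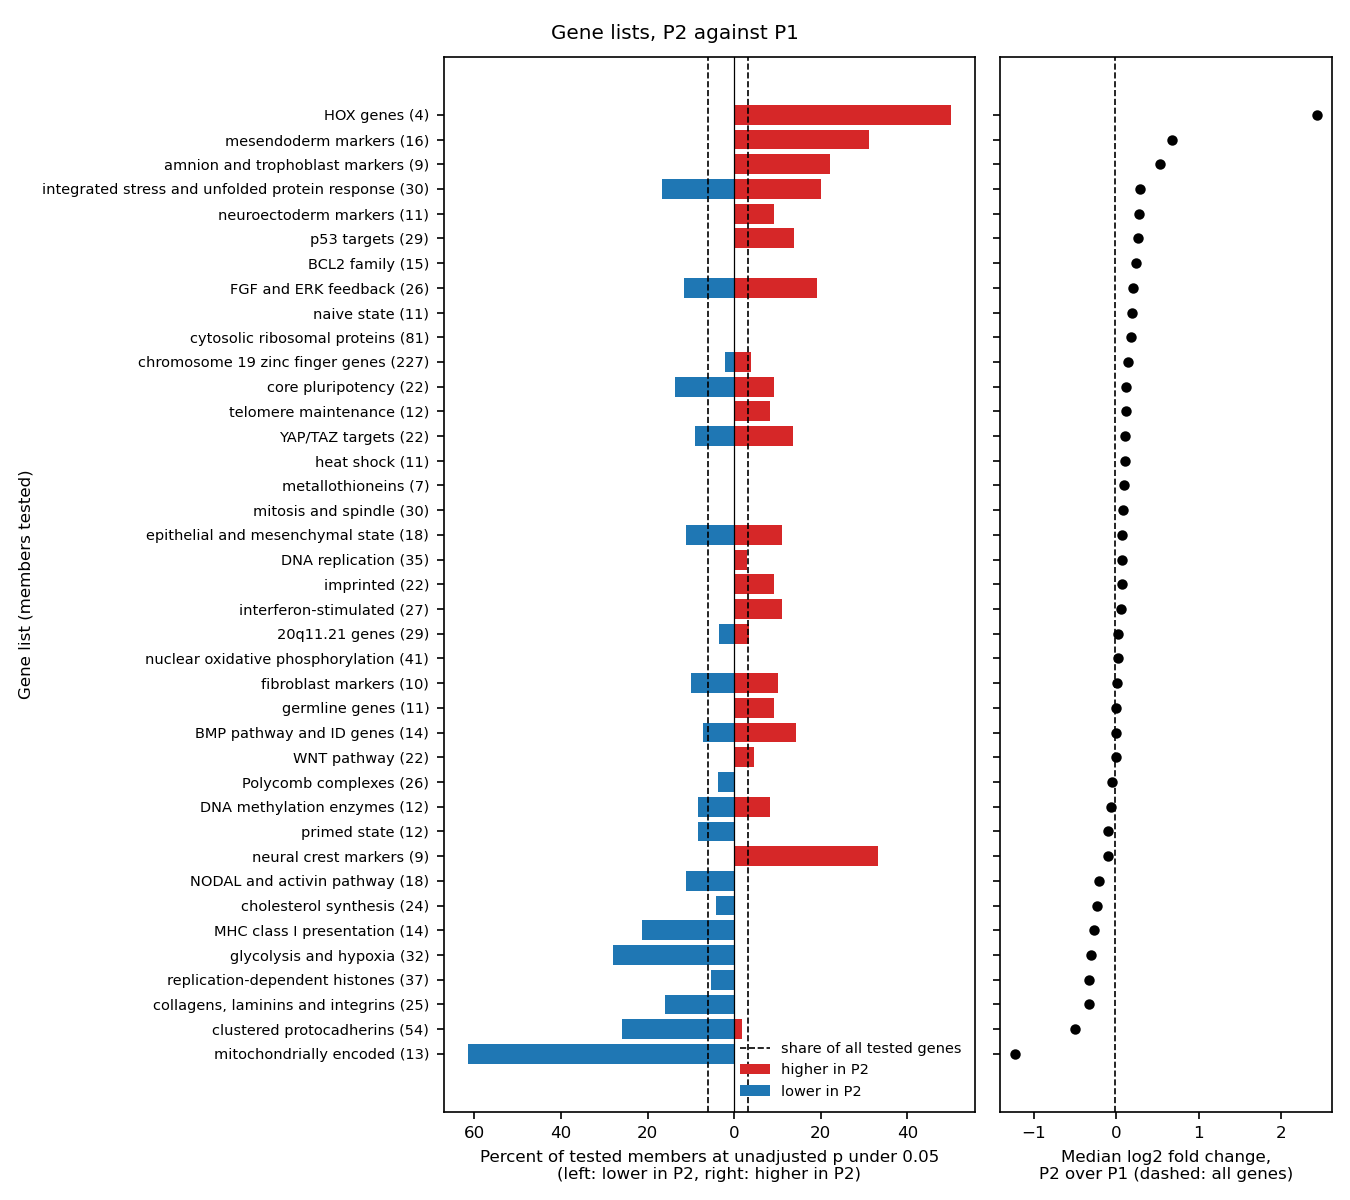
Left, bars give the percentage of tested members of each list at an unadjusted p under 0.05, higher in P2 to the right and lower to the left, beside the shares of all tested genes (3.08% and 6.06%, dashed). Right, points give the median log2 fold change, from -1.23 for mitochondrially encoded genes upwards. The HOX, mesendoderm and neural crest lists include higher members that passed the filter on low counts only through P2 hESCs. Their bars to the right are at least partly set by that filter.

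Markers of mesendoderm, the common precursor of mesoderm and endoderm, were higher in P2 hESCs in 5 of 16 tested members, with none lower. Besides APLNR and HAND1, these were GATA6, EOMES and GATA4, transcription factors of mesoderm and endoderm. HAND1, GATA6 and GATA4 reached the filter on low counts only through their P2 samples, and the other 2, APLNR and EOMES, passed it without them. GATA6 was at 0.0860 and 0.0630 CPM in P1 hESCs and at 0.706 and 0.560 CPM in P2 hESCs, which is 8.51-fold from 5 counts in P1. EOMES was at 1.00 and 0.756 CPM against 2.87 and 2.04 CPM. EOMES was at 0.0948 and 0.0837 CPM in P3 hESCs and at 0.584 and 0.606 CPM in P4 hESCs. GATA6 was at 0.0632 and 0.0279 CPM in P3 hESCs. In P4 hESCs GATA6 was at 0.412 and 0.202 CPM, above both P1 samples. Of the defining members of the list, TBXT (Brachyury) and MIXL1 had log2 fold changes of 0.63 and 0.45 with intervals that included 0, and FOXA2 had -0.68. The summed level of the list was 81.1 and 87.9 TPM in P1 hESCs and 81.2 and 79.0 TPM in P2 hESCs, so the higher members were a small part of it. The count of 5 includes the 3 whose direction the filter set, and 2 were higher apart from these. On centred log2(TPM + 1) 2 members were higher. Whether a small share of differentiating cells took part in the differences was not tested.

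Other lineage lists showed few members, most of them at low levels, beside 3.08% of all genes higher and 6.06% lower. Among 9 neural crest markers, NGFR, PAX7 and MSX1 were higher. NGFR (the neurotrophin receptor p75) was at 27.02 and 22.05 CPM in P1 hESCs and at 42.7 and 49.9 CPM in P2 hESCs, whereas MSX1 was under 0.73 CPM and PAX7 under 0.44 CPM in every sample, and PAX7 turned negative (-0.10) on centred log2(TPM + 1). The defining crest gene SOX10 had a log2 fold change of -0.22 with an interval that included 0, and the median of the list was -0.10. The count of higher crest markers was 1 without P1-1 or P2-2 and 2 without P1-2 or P2-1. Among 9 amnion and trophoblast markers, CDX2 (a trophoblast and hindgut transcription factor) was at 0.143 and 0.0945 CPM against 0.974 and 0.756 CPM, and ERVW-1 (syncytin 1) was 1.20 higher on the log2 scale. Of 11 tested neuroectoderm markers 1 was higher, POU3F1 (0.47), and of 10 fibroblast markers TAGLN was higher (0.73) and COL1A1 lower (-0.75). No neuroectoderm marker was higher without P1-2, P2-1 or P2-2, no fibroblast marker was lower without P1-2 or P2-1, and 1 amnion and trophoblast marker was higher without P1-1, P2-1 or P2-2.

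HOX genes, which set position along the body axis and are silent in pluripotent cells, were close to undetectable in P1 hESCs. Of the 39 HOX genes in the files, 30 had a TPM of 0 in both P1 samples and 12 in both P2 samples. Their summed level was 0.45 and 0.35 TPM in P1 hESCs and 2.12 and 2.64 TPM in P2 hESCs. Only 4 passed the filter on low counts. HOXB9 was at 0 and 0.0315 CPM in P1 hESCs against 0.706 and 0.364 CPM, and HOXB6 at 0 in P1 hESCs against 0.341 and 0.280 CPM. Both were tested only because of their P2 counts, so they had to be higher, and no count or median is read from the list. HOXB6 was thus at least 3.29-fold higher. Both were at 0 in all P3 and P4 samples.

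Single regulators of signalling and cell shape were also higher at low levels. LEF1, a nuclear effector of WNT signalling, was at 0.802 and 0.347 CPM in P1 hESCs and at 2.56 and 2.16 CPM in P2 hESCs. It was the only one of 22 tested WNT pathway genes at an unadjusted p under 0.05 (4.55%, beside 3.08% of all genes higher). AXIN2, a direct WNT target, had a log2 fold change of -0.07. In the epithelial and mesenchymal list of 18 genes, 2 were higher (11.1%) and 2 lower (11.1%), beside 3.08% and 6.06% of all genes. Of the 18, 10 were positive and 8 negative, with a median of 0.075, so the list as a whole did not move in 1 direction. The higher 2, ZEB2 and ZEB1, repressors of epithelial genes, were 2.00 and 1.61 higher on the log2 scale at levels of 0.378 to 2.41 CPM. No member of the epithelial and mesenchymal list was lower without P1-2 or P2-2. Of the epithelial genes, EPCAM was at 255 and 336 CPM in P1 hESCs and at 177 and 142 CPM in P2 hESCs, and CDH1 (E-cadherin) at 373 and 642 CPM against 313 and 325 CPM. CDH1 therefore differed between the P1 samples by more than P1-1 differed from the P2 samples. Among 22 tested imprinted genes, MEG3 and DLK1, neighbours in 1 imprinted cluster, were higher (9.09%, beside 3.08% of all genes). MEG3 had passed the filter only through P2 hESCs. DLK1 was at 1.58 and 1.67 CPM against 4.24 and 4.34 CPM, and MEG3 at 0.0286 and 0.189 CPM against 0.755 and 0.616 CPM.

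Genes of glycolysis and of the hypoxia response were lower in P2 hESCs in 9 of 32 members, with none higher, and 27 of the 32 had a negative log2 fold change (median -0.31). SLC2A1 (GLUT1, the main glucose transporter) was at 668 and 1399 CPM in P1 hESCs and at 414 and 456 CPM in P2 hESCs. SLC16A3 (MCT4, which exports lactate) was at 82.5 and 103 CPM against 28.9 and 32.2 CPM. PFKFB4, which makes the activator of phosphofructokinase, was at 39.0 and 87.3 CPM against 26.56 and 26.98 CPM. In each of these 3 genes P1-2 was the highest sample and the P2 samples were close together. KDM3A (a histone demethylase induced by hypoxia), PDK1, HK2, SLC16A1, BNIP3 and LDHA were lower by 0.49 to 0.69 on the log2 scale. LDHA (lactate dehydrogenase A) was at 1161 and 987 CPM against 690 and 651 CPM. The glycolytic enzymes GAPDH and ENO1 had log2 fold changes of -0.09 and -0.06, and VEGFA, another hypoxia target, had 0.28, all with intervals that included 0.

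The count of lower glycolysis and hypoxia genes was 8 without P1-1, 4 without P1-2, 6 without P2-1, 3 without P2-2 and 5 with the mitochondrial share as a covariate, and the median of the list stayed negative in each of these fits (-0.21 to -0.40). On log2(TPM + 1) it was 3, with a median of -0.08 beside 0.13 for all genes. SLC2A1 and SLC16A3 were also higher in the P3 sample with the higher mitochondrial share, at 958 against 391 CPM and at 122 against 32.7 CPM. Not all lower members followed that share. In P4-1, the P4 sample with the higher share, SLC2A1 (918 against 703 CPM) and SLC16A3 (74.8 against 48.7 CPM) were higher than in P4-2. PFKFB4 (23.4 against 31.35 CPM) and KDM3A (65.8 against 108 CPM) were lower there. The part of the mitochondrial share in the difference was not tested. EGLN1 and STC1, named above, are also oxygen-regulated genes and were lower. In the same P3 samples EGLN1 was at 17.6 and 14.6 CPM.

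The 13 protein-coding genes of the mitochondrial genome were all below their P1 values in both P2 samples, and 8 were at an unadjusted p under 0.05, with a median of -1.23. MT-ND1 (a subunit of complex I) was at 3624 CPM in P1-1 and 9016 CPM in P1-2, and at 2174 and 2490 CPM in P2 hESCs. The median without P1-2 was -0.65 with 0 of 13 genes under that p, 0 and 1 were left without P2-1 and P2-2, and DESeq2 gave 0 of 13. The 41 nuclear genes of oxidative phosphorylation held none in either direction, with a median of 0.02.

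The list of the integrated stress and unfolded protein response was split. This pair of pathways answers shortage of amino acids or protein misfolding in the endoplasmic reticulum, the first through the factor ATF4 and the second partly through ATF6 and XBP1, which raise chaperones. Of 30 members, 6 were higher (CHAC1, CEBPB, ATF3, TRIB3, ASNS and PSPH) and 5 lower (HSPA5, HSP90B1, CALR, CRELD2 and PDIA4). The higher ones are known targets or partners of ATF4, and the lower ones are chaperones and folding enzymes of the endoplasmic reticulum. CHAC1 (which degrades glutathione) was at 60.9 and 28.7 CPM in P1 hESCs and at 118 and 130 CPM in P2 hESCs. ATF3 was at 38.3 and 23.8 CPM against 66.2 and 66.3 CPM. ASNS (asparagine synthetase) was at 104 and 58.9 CPM against 153 and 141 CPM. In these genes P1-2 was the lowest and P1-1 lay between P1-2 and the P2 samples. HSPA5 (BiP, the main chaperone of the endoplasmic reticulum) was at 799 and 1264 CPM in P1 hESCs and at 575 and 629 CPM in P2 hESCs. CALR (calreticulin) was at 822 and 1284 CPM against 622 and 659 CPM. Without P1-2, 3 members were higher and 0 lower, without P2-1 or P2-2 5 were higher and 1 lower, and with the mitochondrial share as a covariate 6 were higher and 1 lower. Without P1-1, 9 were higher and 6 lower.

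Promoter stretches of some of these genes are shown because they hold motifs that ATF4 and the unfolded protein response are known for. The list was itself written from known targets of both pathways. The motifs were chosen after the values were seen. In windows from 250 bases before to 50 bases after the RefSeq start sites (GRCh38.p14), which were at hand for 26 of the 30 genes, the letters TGATGNAA of a C/EBP-ATF response element were searched on both strands. They were found in 3 of 5 higher genes with a window and in 0 of 5 lower genes, against 23.1% of the 26 listed genes and 4.46% of all genes with a window. The letters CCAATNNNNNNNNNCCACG of the endoplasmic reticulum stress element were found in 4 of 5 lower genes and 0 of 5 higher genes, against 19.2% of the 26 and 0.0916% of all genes. In the lines below the motif is in capitals, with 20 bases on each side, in the direction of the gene. In CHAC1, CALR and CRELD2 the motif lies on the opposite strand and is therefore seen as its reverse complement.
CHAC1 (chr15:40953242-40953289, plus strand): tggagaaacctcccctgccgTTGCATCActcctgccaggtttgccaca
ASNS (chr7:97872449-97872496, minus strand): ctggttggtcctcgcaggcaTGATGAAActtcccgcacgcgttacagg
ATF3 (chr1:212565196-212565243, plus strand): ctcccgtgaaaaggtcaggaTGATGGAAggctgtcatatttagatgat
HSPA5 (chr9:125241371-125241429, minus strand): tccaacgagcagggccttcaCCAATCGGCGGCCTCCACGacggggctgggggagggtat
HSP90B1 (chr12:103930196-103930254, plus strand): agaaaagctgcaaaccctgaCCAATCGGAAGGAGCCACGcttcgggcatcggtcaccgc
CALR (chr19:12938364-12938422, plus strand): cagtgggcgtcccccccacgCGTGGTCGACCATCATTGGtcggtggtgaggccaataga
CRELD2 (chr22:49918534-49918592, plus strand): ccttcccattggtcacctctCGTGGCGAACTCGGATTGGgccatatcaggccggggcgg

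A match is a description of letters and not a binding site. Members with a match did not all differ. HERPUD1, CEBPG and SLC3A2 also hold the first motif and had log2 fold changes of 0.56, 0.29 and -0.22, and XBP1, with the second, had 0.33, none at an unadjusted p under 0.05. PDIA4, the lower gene without the second motif, was at 397 and 562 CPM against 309 and 350 CPM. The core letters of a HIF site, ACGTG or GCGTG, were found in 8 of 8 lower glycolysis and hypoxia genes with a window and in 18 of 20 of the others, against 52.4% of all genes, so these letters did not separate lower members from the rest of the list.

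**Figure D4:**
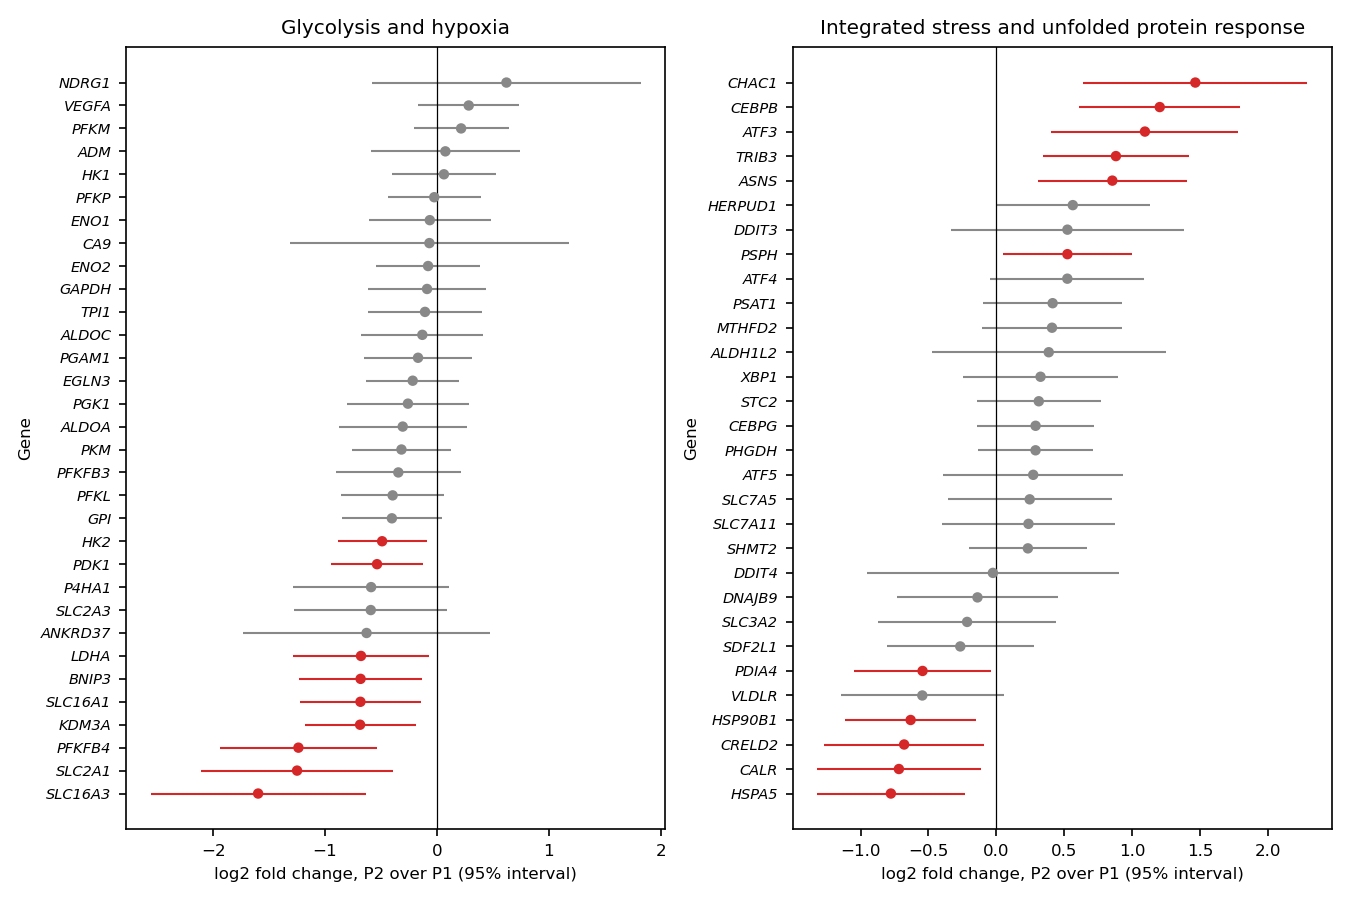
Points give the log2 fold change of P2 over P1 and lines its 95% interval for the members of 2 lists, in red where the unadjusted p is under 0.05. The glycolysis and hypoxia genes in red lie on 1 side (SLC16A3 lowest, at -1.60), and those of the stress response on both (CHAC1 at 1.46, HSPA5 at -0.78).

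Targets of p53, the factor that halts or kills damaged cells, were higher in 4 of 29 members (13.8%) with none lower (median 0.26). Of all tested genes, 3.08% were higher and 6.06% lower. These were SESN2, GDF15, BTG2 and AEN. GDF15, a secreted stress factor, was at 4.96 and 5.23 CPM in P1 hESCs and at 9.91 and 12.6 CPM in P2 hESCs, and BTG2 (an antiproliferative gene) at 10.4 and 13.8 CPM against 20.1 and 20.1 CPM. SESN2 and GDF15 also respond to ATF4. CDKN1A, the best known p53 target, had a log2 fold change of 0.54 and MDM2 of -0.06, both with intervals that included 0. The count of higher members was 3 without P1-1, 2 without P1-2 or P2-1 and 1 without P2-2. None of 15 tested genes of the BCL2 family, which decide on survival or apoptosis, was at an unadjusted p under 0.05. BCL2L1 was at 67.0 and 61.8 CPM against 73.0 and 79.6 CPM, a log2 difference of 0.24 with an interval from -0.20 to 0.68.

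Of 26 genes of FGF signalling and ERK feedback, 5 were higher (19.2%) and 3 lower (11.5%), beside 3.08% and 6.06% of all genes. The higher ones (SPRY4, FOSL1, ETV5, DUSP4 and SPRY2) are induced by ERK, and the lower ones (FGF4, FGFR4 and FGF17) are ligands and a receptor. SPRY4, a feedback inhibitor, was at 201 and 157 CPM in P1 hESCs and at 302 and 331 CPM in P2 hESCs, and ETV5 at 32.3 and 20.4 CPM against 46.8 and 45.4 CPM. FGF4 was at 1.86 and 3.34 CPM against 1.39 and 1.26 CPM. Without P1-2, 0 of the 26 were at an unadjusted p under 0.05 in either direction, and without P2-1 or P2-2 3 and 2 were higher and 0 lower. Without P1-1, 8 were higher and 5 lower. In the NODAL and activin list 2 of 18 genes were lower, the receptor ACVR2A (-0.80) and SMAD4 (-0.49), which serves activin and BMP signals, and 0 without P1-2 or P2-2. In the BMP list of 14 genes ID3 (0.61) and SMAD6 (0.67), targets of BMP signals, were higher and SMAD9 (-1.18) was lower. SMAD9 had a positive value on both TPM scales without centring, 0.09 and 0.27, and the BMP list had 0 higher members without P1-1 or P2-2. Among 22 YAP and TAZ targets, 3 were higher, with AMOTL2 and AMOTL1 among them, and CCN2 and RBMS3 were lower. Without P1-2 or P2-2 none of the 22 was in either direction, without P2-1 2 were higher and 0 lower, and without P1-1 5 and 1. CCN2 (connective tissue growth factor) was at 391 and 578 CPM against 309 and 315 CPM. The shares higher and lower were 0% and 11.1% in the NODAL and activin list and 14.3% and 7.14% in the BMP list. They were 13.6% and 9.09% among the YAP and TAZ targets, some of these near the 3.08% and 6.06% of all genes.

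Clustered protocadherins, cell surface proteins encoded in 3 neighbouring clusters on chromosome 5 and best known in neurons, were lower in 14 of 54 tested members. Of the 54, 44 had a negative log2 fold change and the median was -0.49. PCDHB5 was at 22.8 and 36.6 CPM in P1 hESCs and at 10.9 and 11.4 CPM in P2 hESCs (log2 fold change -1.41 ± 0.25, FDR 0.0957), and was at 36.9 to 50.5 CPM in P3 and P4 hESCs. PCDHGA6 was at 4.96 and 5.10 CPM against 2.17 and 1.48 CPM, and PCDHGB5 at 3.21 and 7.12 CPM against 1.44 and 1.96 CPM. The one higher member, PCDHA14, which also passed the filter only through P2 hESCs, was at 0 in both P1 samples and at 0.633 and 1.04 CPM in P2 hESCs. Genes of the alpha and gamma clusters share their last exons, so reads there cannot be assigned to 1 gene with certainty. The count of lower members was 7 without any 1 of P1-2, P2-1 and P2-2, 18 without P1-1 and 3 on log2(TPM + 1), where the median was -0.08 beside 0.13 for all genes.

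In several matrix genes and genes of antigen presentation P1-2 was well above P1-1. Among 25 collagen, laminin and integrin genes, LAMB2, ITGAV, LAMA5 and COL18A1 were lower. LAMB2 was at 135 CPM in P1-1 and 310 CPM in P1-2, against 113 and 124 CPM in P2 hESCs, and COL18A1 at 436 and 986 CPM against 385 and 484 CPM. ITGAV was at 74.8 and 82.2 CPM against 59.6 and 51.2 CPM, and so higher in both P1 samples. Without P1-2, 0 of the 25 were lower and the median was 0.01 in place of -0.33. Without P1-1 13 were lower, and without P2-1 and P2-2 1 and 3. Of 14 genes of MHC class I presentation, HLA-C, HLA-B and TAP2 were lower, and 0 were without P1-2 or P2-1 and 1 without P2-2. HLA-C was at 228 and 366 CPM against 158 and 194 CPM. The 3 lower genes are 21.4% of the MHC class I list, beside 6.06% of all genes. Reads of HLA genes can be shared between family members.

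Regulators of chromatin differed in single genes. TET1, which oxidizes methylated cytosine and is abundant in pluripotent cells, was at 102 and 114 CPM in P1 hESCs and at 68.0 and 67.3 CPM in P2 hESCs, and remained at 57.8 to 70.5 CPM in P3 and P4 hESCs. Its log2 fold change was -0.67 ± 0.18 (FDR 0.330). APOBEC3B, a cytidine deaminase, was at 25.2 and 30.4 CPM in P2 hESCs and at 18.1 CPM or less in P1 hESCs (log2 fold change 0.91 ± 0.28). DNMT1, DNMT3A and DNMT3B were within 0.14 of 0 on the log2 scale. EZH2, the methyltransferase of Polycomb complex 2, was the one of 26 Polycomb genes at an unadjusted p under 0.05 (-0.54). That is 3.85% lower, beside 6.06% of all genes. TERF2 was the one of 12 telomere genes (0.47), 8.33% higher beside 3.08% of all genes. EZH2 was not under that p without P1-2, P2-1 or P2-2, nor APOBEC3B without P1-2 or P2-2. No telomere gene was higher without P1-2, P2-1 or P2-2 or with the replicate block.

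Of 227 tested zinc finger genes on chromosome 19, 9 were higher (3.96%) and 5 lower (2.20%), beside 3.08% and 6.06% of all genes. The count of higher ones was 18 without P1-1, 1 without P1-2, 2 without P2-1 and 3 without P2-2, and 9 were lower without P2-1. Several of those with the smallest p-values had much larger differences in the later lines. ZNF726 was at 2.52 and 3.40 CPM in P1 hESCs, at 0.463 and 0.672 CPM in P2 hESCs and at 0 in all P3 and P4 samples. ZNF528 was at 0.315 and 0.252 CPM against 0.0487 and 0.0280 CPM in P2 hESCs, but at 13.3 to 17.9 CPM in P3 and P4 hESCs. ZNF229 was at 0.115 and 0.126 CPM against 0.779 and 0.644 CPM, under 0.1 CPM in P3 hESCs and at 17.3 and 17.7 CPM in P4 hESCs. The level in P2 hESCs thus lay between P1 and the later lines for ZNF726 but not for ZNF528.

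Growth and housekeeping lists held almost no member at an unadjusted p under 0.05, beside 9.14% of all genes. Lists of 11 or 7 genes are too short to tell 0 from that share. There were 0 of 30 mitosis and spindle genes, 0 of 81 cytosolic ribosomal protein genes, 0 of 11 heat shock genes and 0 of 7 metallothioneins, and 1 of 35 DNA replication genes (RPA2, 0.40, and none without P1-2, P2-1 or P2-2). Ribosomal protein genes had a median of 0.18, with 76 of 81 positive. In 45 of the 81 both P2 samples lay above both P1 samples, and in 1 both lay below. Over all genes these shares were 24.2% and 24.1%.

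In P2 hESCs the band 20q11.21 lay close to the rest of the genome. The median log2 fold change of its 29 tested genes was 0.03, beside -0.01 for all genes, with 15 positive and 14 negative. The medians for P3 and P4 hESCs against the same P1 samples were 1.40 and 1.31. TPX2, a spindle assembly factor, was at 142 and 99.7 CPM in P1 hESCs and at 142 and 166 CPM in P2 hESCs (0.35, interval from -0.14 to 0.85). In P3 and P4 hESCs it was at 434 to 630 CPM. HM13, a peptidase of the endoplasmic reticulum, had a log2 fold change of -0.50 and ID1 of 0.24, both with intervals that included 0. PLAGL2, a zinc finger factor, was at 43.75 and 29.96 CPM against 50.1 and 54.5 CPM (0.50, interval from 0.01 to 1.00) and was the only gene of the band higher at an unadjusted p under 0.05. The only lower one was ENSG00000260257, a noncoding gene, at -1.70. For 25 of the 29 genes the upper bound of the 95% interval lay under 1 on the log2 scale. That bound is a doubling of RNA, so this count says nothing of smaller rises, and copy number in P2 hESCs was not tested. Differences smaller than the typical reach of 0.617 could not be resolved gene by gene, and the low-level genes MCTS2, TTLL9 and C20orf203 had intervals more than 3 log2 units wide.

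**Figure D5:**
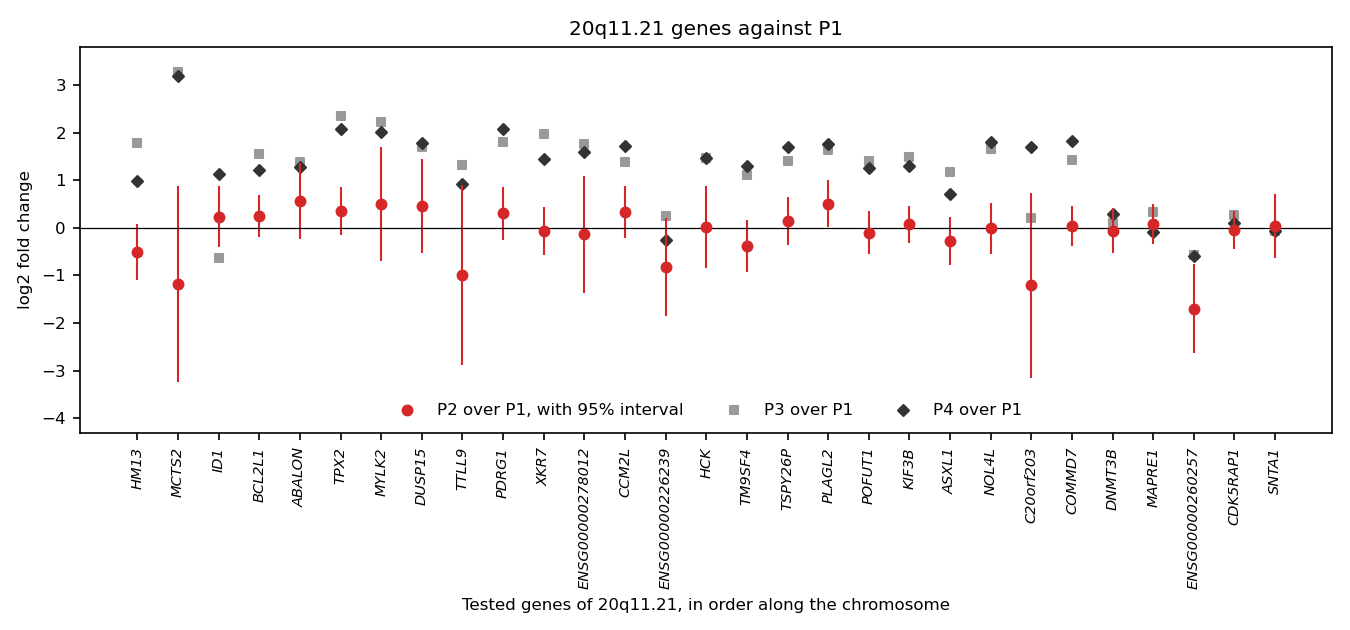
Red points and lines give the log2 fold change of P2 over P1 with its 95% interval for the 29 tested genes of 20q11.21 in chromosomal order, and grey squares and black diamonds give P3 and P4 over P1 without intervals. The red points scatter around 0 (median 0.03), while most squares and diamonds lie above 1 (medians 1.40 and 1.31).

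Whole chromosomes also lay close to the median of all genes. The median log2 fold change per chromosome ran from -0.08 for chromosome 13 to 0.04 for chromosome 20, and the arms that are often gained in culture were at 0.03 (1q), -0.08 (12p), 0.00 (17q) and 0.05 (20q).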

How the data were processed

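Strand-specific mRNA libraries had been made from 8 samples, 2 for each of the lines P1 to P4. The submitters' processing notes name FastQC, Trim Galore, STAR 2.7.3a, RSEM 1.3.3 and GRCh38. The annotation release and the strand setting of the counting are not given in the sources used here. The authors deposited an expected count per gene and sample, estimated by RSEM and not normalized, and a TPM value, scaled by RSEM for effective gene length and depth. Each sample had its own file.

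After rounding of the expected counts, edgeR 4.0.16 (R 4.3.3) was run with TMM factors. The function filterByExpr, given the 4 lines, retained 19499 of 60675 genes. A quasi-likelihood model of the 4 lines without covariates was fitted to all 8 samples, and P2 was contrasted with P1, with Benjamini-Hochberg adjustment over all tested genes. Total counts ran from 32843918 to 38031232 in the 4 samples compared, and intervals and floors cover counting error or the fitted spread only. DEGs were called at the thresholds of the study, more than 1 log2 unit in either direction with an FDR under 0.01. The study names DESeq2 for this step, which is an alternative here. The fit was checked on simulated counts. Positions and gene types are from GENCODE v29 (GRCh38), bands from circlize 0.4.16, and promoter windows from RefSeq (GRCh38.p14).

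Named genes were the 12 with the smallest p-value in each direction among genes with a symbol whose groups did not overlap, more than 1 log2 unit apart and averaging at least 1 CPM in the higher line. Further named genes had at most 3 counts in both samples of 1 line and at least 1 CPM in both of the other, or were up to 4 members per list at an unadjusted p under 0.05, TPX2 and BCL2L1 always. Further list members are named for their role. The comparison, lists and tests were chosen with earlier results of these data known. Lists are described by counts and medians, without a set test. The alternatives were DESeq2 1.42.0, its size factors in edgeR, no filter, only P1 and P2 samples, a replicate block, limma 3.58.1 on log2(TPM + 1) and log2(TPM + 0.1), no mitochondrial genes, the mitochondrial share as a covariate, each sample left out in turn and an FDR under 0.05 without a fold minimum. A centred TPM scale was added after the data were seen. A few named genes, 1 of the 12 leading higher ones included, are not reported here.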

Additional observations from a re-analysis of the deposited data

How the results depend on the processing

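The count of DEGs was 0 in the reported fit and 0 or 1 without each sample in turn, 1 (APLNR) at an FDR under 0.05 without a fold minimum, 40 with DESeq2, 35 with only P1 and P2 samples, 273 without a filter on low counts and 1 on log2(TPM + 1). The 1 without P1-1 was PRODH, and the 1 without P2-1 was ENSG00000277669, at 0 in the other 3 P1 and P2 samples. The count of genes higher at an unadjusted p under 0.05 (601) ran from 206 to 920 and the count of lower genes (1181) from 311 to 1605 without each sample. They were 952 higher without a filter, 1102 and 1957 with only P1 and P2 samples and 380 and 660 with the mitochondrial share as a covariate. On log2(TPM + 1), 895 were higher and 458 lower, and on log2(TPM + 0.1), 791 and 379. The median of 20q11.21 (0.027) was 0.16 on log2(TPM + 1), 0.20 on log2(TPM + 0.1), -0.031 on centred log2(TPM + 1), and from -0.071 to 0.053 without each sample. Of the 110 named genes, SMAD9 changed sign on log2(TPM + 1) (0.090) and log2(TPM + 0.1) (0.27), and PAX7 (-0.10) and OAS1 (-0.12) on the centred scale added after the data were seen. Without the filter 34063 genes were tested. With only P1 and P2 samples 18711 were tested, and those samples alone set the filter and gave the spread. The median absolute log2 difference within a line was 0.238 in P3 and 0.243 in P4, against 0.211 in P1 and 0.142 in P2. Why the counts differed between settings was not tested. With the replicate block, 0 genes were DEGs, 591 were higher and 1223 lower. The labels do not say whether same-numbered samples belong together. The correlation over genes of the differences between replicates ran from -0.13 to 0.19 over the pairs of lines (0.14 for P1 and P2), which cannot settle it. At 2 against 2, differences under the typical reach of 0.617 of the 95% interval on the log2 scale were not resolved, and genes under about 0.1 CPM rest on 3 counts or fewer.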

Other observations

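Lists not described above held few members at an unadjusted p under 0.05, beside 3.08% higher and 6.06% lower over all genes. Of 27 tested interferon-stimulated genes 3 were higher (OAS3, MX2 and OAS1) and none lower, and 1 was higher without any 1 of P1-2, P2-1 and P2-2. OAS3, which senses double-stranded RNA, was at 2.49 and 1.58 CPM in P1 hESCs and at 3.87 and 4.12 CPM in P2 hESCs, and MX2 at 0.659 and 0.725 CPM against 1.80 and 1.74 CPM. OAS1 was under the floor in all 4 samples and at 1.45 to 3.81 CPM in P3 and P4 hESCs. It was therefore tested only because of P3 and P4 hESCs. Of 11 tested germline genes MAGEA4, a cancer-testis antigen, was the only one, at 0.201 and 0.252 CPM in P1 hESCs and at 0.633 and 0.588 CPM in P2 hESCs. It was at 503 and 402 CPM in P3 hESCs and at 8.62 and 7.30 CPM in P4 hESCs.

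Replication-dependent histone genes, whose transcripts largely lack a poly(A) tail and are poorly captured in mRNA libraries, were lower in 2 of 37 tested members, and 30 of the 37 were negative (median -0.33). On log2(TPM + 1) the median was -0.03 beside 0.13 for all genes. Of 12 genes of the primed pluripotent state NLGN4X was lower (-0.61), but not under that p without P1-2, P2-1 or P2-2, and of 11 tested naive-state genes 0 passed in either direction.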
